A study of Mus musculus with 12 samples.

Results

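The genes described here are 10 targets of the transcription factor STAT5 and feedback inhibitors of cytokine signalling, read in mouse LSK cells across 3 drug comparisons. They were chosen as the rows whose symbol equals Socs1, Socs2, Socs3, Cish, Pim1, Pim2, Bcl2l1, Bcl6, Id1 or Myc. All 10 are among the 55487 genes of each deposited table, and all 10 had an adjusted p in every comparison. LSK cells lack lineage markers, carry Sca-1 and Kit on their surface, and hold the stem cells and early multipotent progenitors of bone marrow.

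The tested arms were palbociclib (an inhibitor of the cell cycle kinases CDK4 and CDK6), ruxolitinib (which inhibits the kinases JAK1 and JAK2) and the 2 drugs in combination, each set against vehicle. Every group, vehicle included, was of the C57BL/6 strain with the genotype given as homozygous JAK2V617F, and no group without the mutation is compared, so no level here can be set against unmutated cells. Each group holds 3 libraries, 12 in all, from cells whose source label reads BMT LSK without spelling out the first abbreviation. Doses, treatment times and ages, and the promoter that drives the mutant allele, are not given in the sources used here, and the labels do not say whether libraries of a group came from separate mice, so the p-values may measure a technical spread.

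Cytokines such as interleukin-3, GM-CSF and erythropoietin bind receptors that carry JAK2. The kinase phosphorylates STAT5, which enters the nucleus and switches on target genes, and V617F keeps the kinase active without a cytokine. Among the targets are the genes of CIS and the SOCS proteins, which bind receptors or JAK kinases and damp the same signal, so their transcripts are commonly used as a readout of pathway activity. Other targets promote survival and growth, such as the PIM kinases and BCL-XL.

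STAT5 dimers bind a short palindrome, TTCNNNGAA, which reads the same on both strands. The stretches of promoter that hold this motif are shown because they name the members in which it lies near a RefSeq start site. RefSeq windows on GRCm38.p6 from 250 bases before to 50 bases after a start were matched for 7 of the 10 genes, with 11 windows in all, and none was matched for Socs2, Id1 and Myc. The motif was present in 4 of these 11 windows, in the 3 genes Cish, Socs3 and Bcl6, against 8.30% of 32851 windows of all genes. A match describes letters, not a bound site. In the lines that follow, capitals mark the motif and each sequence is written along the strand of its gene.
Cish, chr9:107296654-107296678, plus strand: cagttTTCCTGGAAagTTCTTGGAA
Socs3, chr11:117969467-117969565, minus strand: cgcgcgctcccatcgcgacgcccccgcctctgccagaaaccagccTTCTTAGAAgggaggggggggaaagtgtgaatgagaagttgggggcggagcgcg
Bcl6, upstream start, chr16:23988917-23989015, minus strand: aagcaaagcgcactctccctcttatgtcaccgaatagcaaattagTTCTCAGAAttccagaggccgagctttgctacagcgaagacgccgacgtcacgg
Bcl6, downstream start, chr16:23981318-23981496, minus strand: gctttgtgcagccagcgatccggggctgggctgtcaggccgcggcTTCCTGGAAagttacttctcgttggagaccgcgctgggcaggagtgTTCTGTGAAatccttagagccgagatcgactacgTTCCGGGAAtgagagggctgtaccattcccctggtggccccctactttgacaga
Cish carried 2 motifs side by side, the first of them beginning 0 bases from the RefSeq start, and the downstream Bcl6 window carried 3. The Cish stretch lies in an exon of GENCODE release 21, and the other stretches lie in no exon of their gene.

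On GRCm38 with GENCODE release 21 all 10 are protein-coding genes. The SOCS genes lie at chr16:10782240-10785536 (Socs1, minus strand), chr10:95385362-95417180 (Socs2, minus) and chr11:117966079-117970047 (Socs3, minus), and Cish at chr9:107296026-107302784 (plus). Pim1 lies at chr17:29490753-29496112 (plus), Pim2 at chrX:7878262-7883432 (plus) and Bcl2l1 at chr2:152780668-152831728 (minus). Bcl6 lies at chr16:23965052-23988852 (minus), Id1 at chr2:152736251-152737410 (plus) and Myc at chr15:61985391-61990374 (plus). Cish, Pim1 and Bcl6 overlap genes on the opposite strand with base means of at most 6.63 normalised reads, and whether counting used the strand is not given in the sources used here.

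No call was made for any of the 10 genes in any drug arm. In the authors' deposited DESeq2 tables, 0 of 10 members passed an adjusted p of 0.05 with palbociclib, where 8.63% of 15448 genes passed. Likewise 0 of 10 passed with ruxolitinib, against 2.96% of 15448 genes, and 0 of 10 with the combination, against 23.0% of 19228 genes. At an unadjusted p under 0.05 the count was 1 of 10 with palbociclib (22.4% of all genes tested), 0 of 10 with ruxolitinib (12.7%) and 1 of 10 with the combination (34.9%), and the gene was Socs2 both times. All 3 comparisons share the same vehicle libraries.

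The median log2 fold change of the 10 members was 0.13 with palbociclib, against 0.02 over all genes tested. It was -0.20 with ruxolitinib (all genes 0.01) and -0.26 with the combination (all genes 0.06). Under ruxolitinib, the inhibitor of JAK1 and JAK2, 3 of 10 estimates lay above vehicle and 7 below it, from -0.77 for Socs3 to 0.89 for Socs2. Bcl6, which is reported to be repressed by STAT5, was among the 7 (-0.73), so the members do not share an expected direction. None of these counts is a result of a test on the group of genes.

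**Figure D1:**
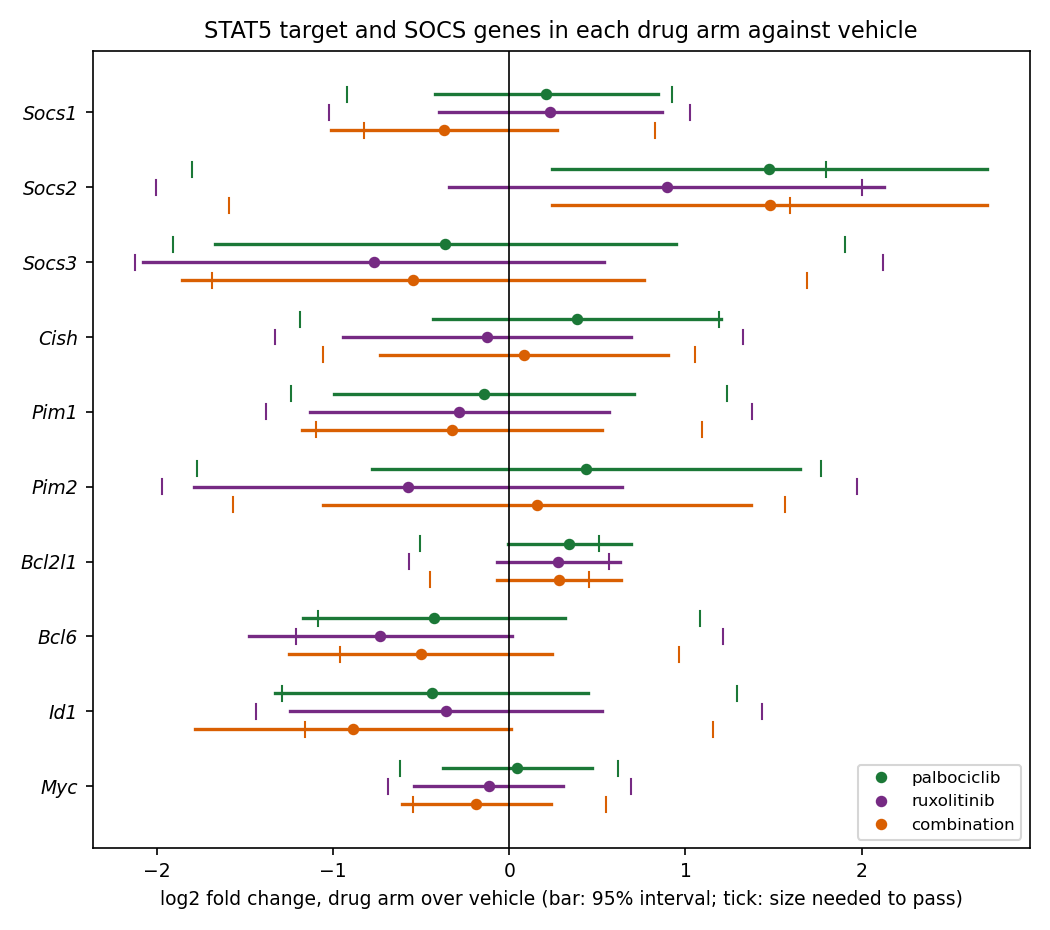
Log2 fold changes of the 10 genes over vehicle on the horizontal axis, for palbociclib, ruxolitinib and the combination; points are the authors' estimates, bars their 95% intervals and short ticks the approximate size that would have passed the adjusted p in that comparison. No point lies beyond its ticks, and only the bars of Socs2 under palbociclib and the combination leave out 0.

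Of the 4 feedback inhibitors 0 passed in any arm, and their estimates lay on both sides of vehicle. Socs2, whose protein is known above all for restraining growth hormone signalling, had a modelled level of 1015 normalised reads with palbociclib, 677 with ruxolitinib and 1016 with the combination, against 365 in vehicle. A modelled level is the mean of the group's 3 libraries after scaling to equal depth, and it was solved from the deposited values because values per library were not used here. The Socs2 estimate lay above vehicle in all 3 arms, with levels bounded by 555 to 1859 with palbociclib and 370 to 1240 with ruxolitinib, against 199 to 669 in vehicle. The 95% interval of the ratio to vehicle, before adjustment over genes, was 1.18 to 6.55 both with palbociclib and with the combination and left out 1, while with ruxolitinib it was 0.789 to 4.37. The authors' deposited table put Socs2 at 1.48 ± 0.63 (standard error) with palbociclib (p = 0.019, adjusted p = 0.13), 0.89 ± 0.63 with ruxolitinib (adjusted p = 0.62) and 1.48 ± 0.63 with the combination (p = 0.019, adjusted p = 0.072). To pass in the palbociclib comparison Socs2 would have needed a change of about 3.48-fold, and 2.78-fold was estimated.

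Cish, which encodes the inhibitor CIS and carries the paired motif shown above, had 514 normalised reads with palbociclib, 361 with ruxolitinib and 417 with the combination, against 394 in vehicle. The 4 levels lay within 1.43-fold of each other and inside each other's intervals. For ruxolitinib, the authors' deposited table gave Cish a log2 fold change of -0.13 ± 0.42 (adjusted p = 0.95), and the 95% interval of the ratio ran from 0.520 to 1.62. Ratios of Cish below 0.520 or above 1.62 therefore lay outside the interval.

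Socs3, an inhibitor of JAK kinases downstream of gp130 and the granulocyte colony-stimulating factor receptor, had 468 normalised reads with palbociclib, 353 with ruxolitinib and 412 with the combination, against 602 in vehicle. It was lowest with ruxolitinib, yet its estimate there, -0.77 ± 0.67 in the authors' deposited table, had an adjusted p of 0.72. The interval of that ratio, 0.237 to 1.45, holds both large decreases and modest increases. Socs1, an inhibitor that binds JAK kinases directly and restrains interferon signalling, had 180 normalised reads with palbociclib, 182 with ruxolitinib and 120 with the combination, against 155 in vehicle. The authors' deposited table put Socs1 at 0.21 ± 0.32, 0.23 ± 0.32 and -0.37 ± 0.33 in that order of arms (adjusted p = 0.78, 0.86 and 0.44). The estimate was thus above vehicle with each single drug and below it with both, with every interval crossing 0.

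**Figure D2:**
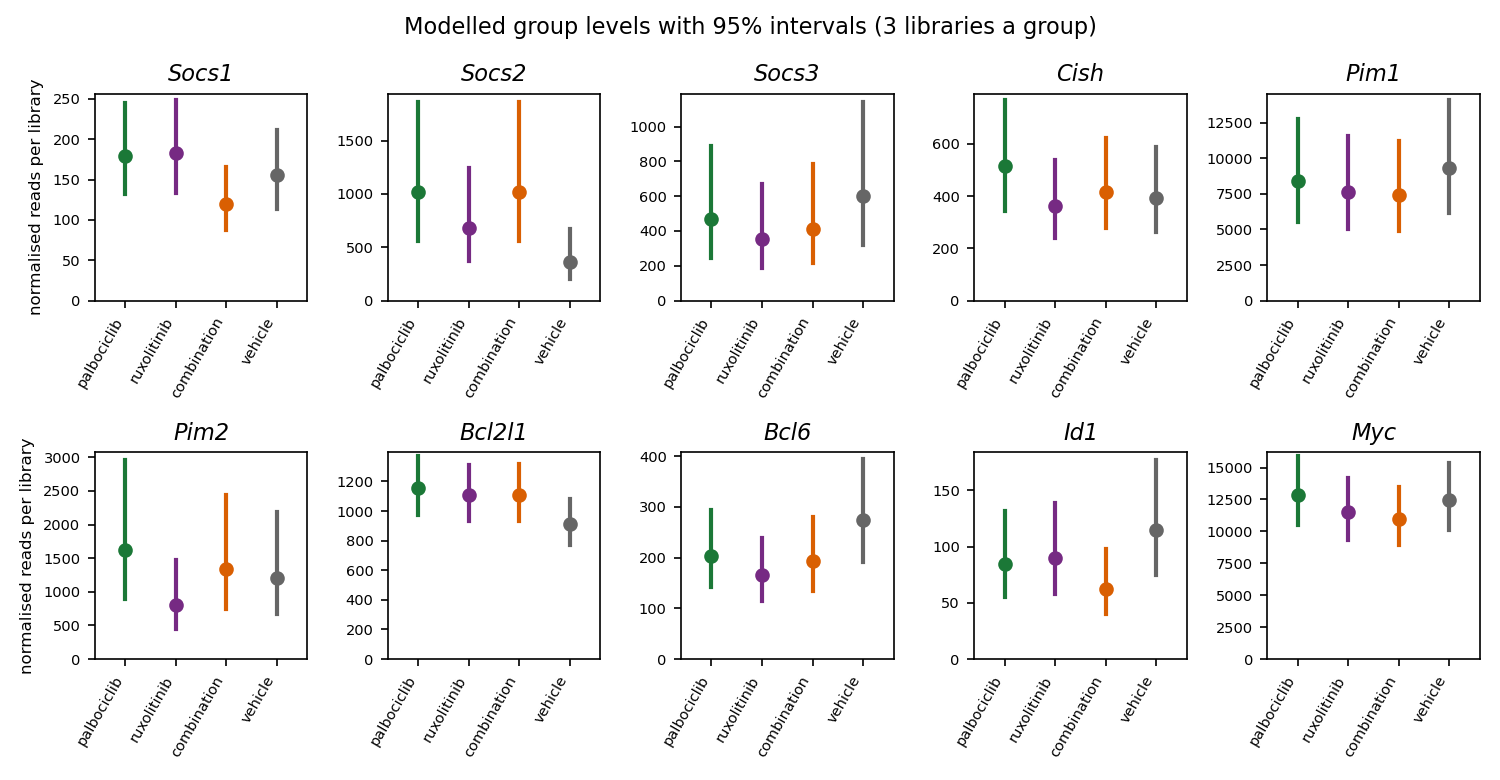
Modelled level of each gene in normalised reads per library (vertical axis from 0, linear) for palbociclib, ruxolitinib, the combination and vehicle; points are group levels and bars 95% intervals from the authors' standard errors, 3 libraries a group. Socs2 is at 1015 with palbociclib against 365 in vehicle, and Myc is at 12887 against 12478; the bars are those of single groups and do not test a difference.

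The survival genes did not pass either. Pim1 encodes a serine/threonine kinase that promotes survival of blood cells, and it was among the most abundant members. It had 8417 normalised reads with palbociclib, 7640 with ruxolitinib and 7418 with the combination, against 9296 in vehicle. All 3 drug levels were below vehicle by less than the width of their intervals, and the authors' deposited table gave -0.14 ± 0.43, -0.28 ± 0.43 and -0.33 ± 0.43 for palbociclib, ruxolitinib and the combination (adjusted p = 0.90, 0.88 and 0.63).

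Pim2, a kinase of the same family, had 1629 normalised reads with palbociclib, 810 with ruxolitinib and 1345 with the combination, against 1205 in vehicle. Between the highest and lowest group this was a ratio of 2.01, which among the members only Socs2 exceeded (2.78). With ruxolitinib the authors' deposited table put Pim2 at -0.57 ± 0.62 (adjusted p = 0.80), with an interval of the ratio from 0.289 to 1.56. The estimates for palbociclib and the combination were 0.43 ± 0.62 and 0.16 ± 0.62 (adjusted p = 0.76 and 0.88, the authors' deposited table).

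Bcl2l1, which encodes the anti-apoptotic protein BCL-XL, was the most tightly measured member. Its level was 1154 normalised reads with palbociclib, 1106 with ruxolitinib and 1108 with the combination, against 912 in vehicle, so that all 3 arms stood slightly above vehicle. In the authors' deposited table the log2 fold changes were 0.34 ± 0.18, 0.28 ± 0.18 and 0.28 ± 0.18 (adjusted p = 0.24, 0.56 and 0.26), and the ratio with ruxolitinib had an interval from 0.953 to 1.55. Ratios below 0.953 of vehicle therefore lay outside the interval for Bcl2l1 with ruxolitinib.

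Among the 3 transcription regulators, Bcl6, a repressor known from germinal centre B cells and reported to be repressed by STAT5, had 204 normalised reads with palbociclib, 165 with ruxolitinib and 193 with the combination, against 274 in vehicle. It was lower than vehicle in all 3 arms without passing, at -0.43 ± 0.38, -0.73 ± 0.38 and -0.50 ± 0.38 (adjusted p = 0.57, 0.41 and 0.36, the authors' deposited table). With ruxolitinib Bcl6 had the lowest unadjusted p of the 10 members in the authors' deposited table (p = 0.055) and an interval of the ratio from 0.359 to 1.01. Id1, an inhibitor of basic helix-loop-helix factors that is also a target of BMP signalling, was the scarcest by reads. Its level was 84.8 normalised reads with palbociclib, 89.9 with ruxolitinib and 62.2 with the combination, against 115 in vehicle. The authors' deposited table gave Id1 -0.44 ± 0.45, -0.36 ± 0.45 and -0.89 ± 0.46 (adjusted p = 0.64, 0.84 and 0.15), the last with an interval of the ratio from 0.290 to 1.01.

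Myc, the growth regulator, was the most abundant member and was nearly level across the arms. It had 12887 normalised reads with palbociclib, 11503 with ruxolitinib and 10961 with the combination, against 12478 in vehicle. These levels lay within 1.18-fold of each other. By the authors' deposited table the log2 fold changes were 0.05 ± 0.22, -0.12 ± 0.22 and -0.19 ± 0.22 (adjusted p = 0.94, 0.91 and 0.57), and the interval of the ratio with ruxolitinib ran from 0.687 to 1.24. Socs1, Cish, Bcl2l1 and Myc are the 4 members for which a change of 2-fold with ruxolitinib, up or down, lay outside the interval.

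Per kilobase of exon, the vehicle level was highest for Myc (4593 normalised reads per kilobase) and Pim1 (2765). The length counts every base in any annotated exon of the gene, from 1160 bases for Id1 to 9531 for Socs2. It can exceed the length of the transcripts present, which lowers the value, so the order of genes is approximate. Pim2 followed at 431, Socs3 at 208 and Bcl2l1 at 199 normalised reads per kilobase. Id1, Cish and Socs1 lay at 99.3, 61.3 and 53.4, and Bcl6 and Socs2 were lowest at 40.9 and 38.3. Neighbours such as Socs3 and Bcl2l1, or Bcl6 and Socs2, lie closer together than their 95% intervals.

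The members differed widely in how precisely they were measured. The modelled coefficient of variation stands for the spread between libraries of a group beyond counting error. It is the value behind the authors' standard errors, solved from them, and not a spread observed from the libraries. It was 56.5% for Socs3, 53.3% for Socs2 and 52.6% for Pim2. Genes with base means within 2-fold of these had medians of 16.5%, 15.4% and 13.7%. Pim1 was at 36.8% against a median of 12.95% for genes of like level, and Cish at 35.1% against 17.5%. These 5 of the 10 members exceeded 90% of the genes of like level. Bcl2l1 and Socs1, at 14.8% and 26.3%, were close to the medians of genes of like level, 14.4% and 26.5%. The spread is estimated over all 24 libraries of the authors' fit, 12 of which are outside these groups and not analysed here, and which libraries carry it cannot be read from group values.

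**Figure D3:**
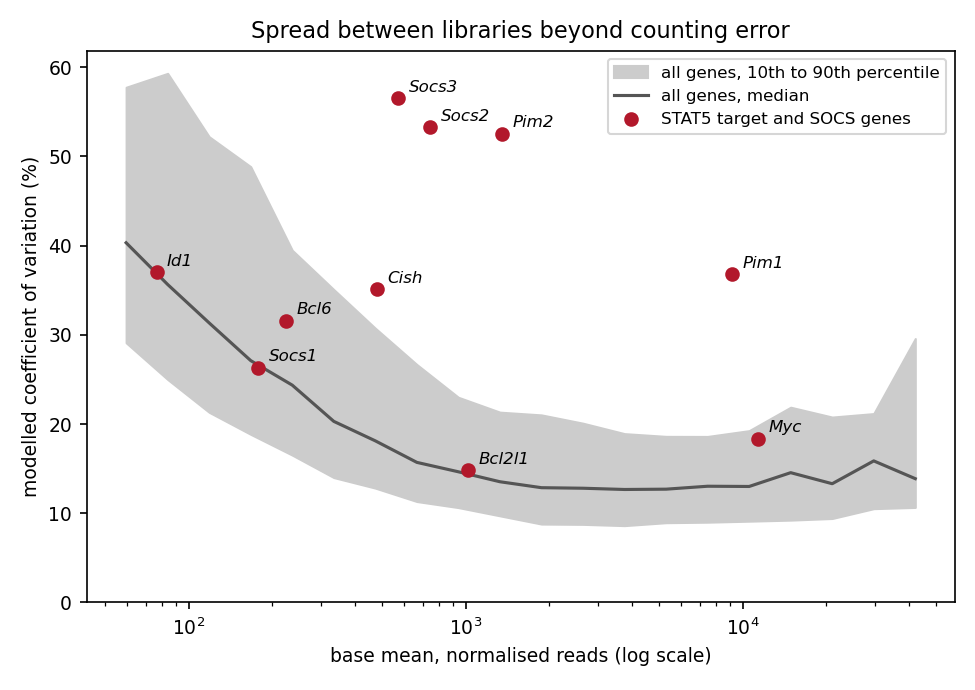
Modelled coefficient of variation in percent (vertical axis) against base mean in normalised reads (horizontal axis, log scale); red points are the 10 genes, the line is the median of all genes at that level and the grey band their 10th to 90th percentiles. Socs3, Socs2, Pim2, Pim1 and Cish stand above the band, while Bcl2l1 at 14.8% lies close to the median.

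Direct differences between drug arms were also below the test. Of the 10 members, 0 passed for the combination minus palbociclib, where 0.0129% of 15448 genes passed. Likewise 0 of 10 passed for the combination minus ruxolitinib (1.62% of genes) and 0 of 10 for palbociclib minus ruxolitinib (0.142%). The test was the difference of the DESeq2 fold changes over the root of their summed squared errors, 2-sided normal with Benjamini-Hochberg adjustment over all genes, and 30 such differences were formed for the members. It ignores the covariance from the shared vehicle libraries, so its intervals are too wide. With the vehicle variance removed, 0 of 10 passed in each of the 3 pairs as well, and no member had an unadjusted p under 0.05 in either form.

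The largest of these differences was that of Pim2, higher with palbociclib than with ruxolitinib by 1.01 on the log2 scale, with a 95% interval of -0.21 to 2.22 when the vehicle variance was removed (adjusted p = 0.60). Socs1 was lower with the combination than with ruxolitinib, at -0.60 with an interval of -1.24 to 0.04 (adjusted p = 0.17), and lower than with palbociclib, at -0.58 with an interval of -1.22 to 0.06 (adjusted p = 0.31). Bcl2l1 was the member best bounded between arms: the combination minus ruxolitinib was 0.00 with an interval of -0.35 to 0.35 (adjusted p = 0.99). For Myc the difference between the combination and palbociclib was -0.23, with an interval of -0.66 to 0.19 (adjusted p = 0.57). These intervals and p-values all have the vehicle variance removed.

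**Figure D4:**
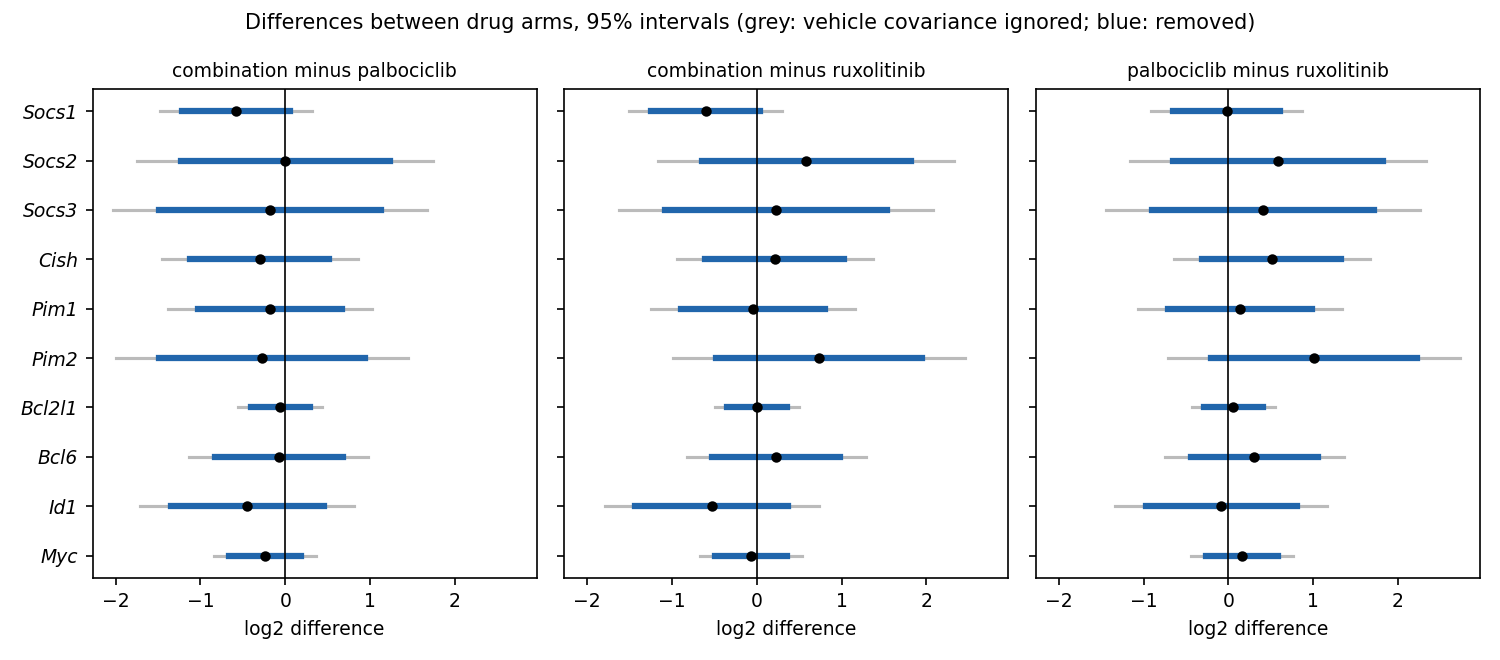
Log2 differences between drug arms (horizontal axis) for each of the 10 genes in 3 pairs; points are differences, grey bars 95% intervals that ignore the shared vehicle libraries and blue bars intervals with the vehicle variance removed. Every bar crosses 0, and those of Socs2, Socs3 and Pim2 are the widest.

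The combination was also compared with the sum of both single-drug effects. For this departure 0 of 10 members passed, against 0.0712% of 15448 genes, and 0 had an unadjusted p under 0.05. The estimate for Socs2 was -0.89 ± 1.09 (standard error) on the log2 scale (adjusted p = 0.84) and that for Socs1 -0.81 ± 0.56 (adjusted p = 0.66). The combination had the same Socs2 estimate as palbociclib alone, with a difference of 0.00 and an interval of -1.23 to 1.23 when the vehicle variance was removed.

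Around these genes, 97 others of the pathway were read from 9 lists of receptors, kinases, regulators, relatives and targets. With palbociclib 8 rose and 5 fell of 92 tested, where 4.98% and 3.64% of all genes did. With ruxolitinib 0 rose and 3 fell of 92, against 0.932% and 2.03% of all genes. With the combination 9 rose and 17 fell of 97, against 12.9% and 10.2% of all genes. The medians of their log2 fold changes were -0.08, -0.05 and -0.19.

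Of the 12 receptor genes, 2 rose and 2 fell with palbociclib, 0 rose and 2 fell with ruxolitinib, and 4 rose and 2 fell with the combination. Csf2rb, the common beta chain of the receptors for interleukin-3, interleukin-5 and GM-CSF, fell in all 3 arms. Its level was 3177 normalised reads with palbociclib, 2541 with ruxolitinib and 2206 with the combination, against 5497 in vehicle. The authors' deposited table gave Csf2rb -0.79 ± 0.26, -1.11 ± 0.26 and -1.32 ± 0.26 (adjusted p = 0.033, 0.0032 and 2.2e-05). Its close copy Csf2rb2 also fell in all 3, at -1.09 ± 0.38, -1.52 ± 0.38 and -1.69 ± 0.38 (adjusted p = 0.048, 0.0064 and 0.00025, the authors' deposited table), and reads of such near-identical genes may be shared between them.

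Csf3r, the receptor of granulocyte colony-stimulating factor, rose with palbociclib, at 0.54 ± 0.18 (adjusted p = 0.037, the authors' deposited table). Its estimates with ruxolitinib and the combination were -0.01 ± 0.18 and 0.32 ± 0.18, also the authors' deposited values.

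Among 12 other reported STAT5 targets, 3 rose, 1 fell and 7 passed neither way of 11 tested with palbociclib. With ruxolitinib 0 rose, 1 fell and 10 passed neither way, and with the combination the counts were 2, 1 and 9. Irs2, the gene of an adaptor of insulin and cytokine receptors, fell in all 3 arms. Irs2 had 399 normalised reads with palbociclib, 365 with ruxolitinib and 341 with the combination, against 859 in vehicle. The authors' deposited table gave -1.11 ± 0.36, -1.23 ± 0.36 and -1.33 ± 0.36 for Irs2 (adjusted p = 0.029, 0.026 and 0.0025), and it was the 1 gene of 11 tested in this list that passed with ruxolitinib. Ccnd1, a D-type cyclin gene, rose to 6693 normalised reads with palbociclib and 4777 with the combination, against 2122 in vehicle, and had 2791 with ruxolitinib. For Ccnd1 the authors' deposited table reads 1.66 ± 0.25, 0.40 ± 0.25 and 1.17 ± 0.25 for palbociclib, ruxolitinib and the combination (adjusted p = 7.8e-08, 0.57 and 0.00015). Ccnd2 rose in the same arms as Ccnd1, at 0.76 ± 0.17 with palbociclib and 0.60 ± 0.17 with the combination in the authors' deposited table. The proteins of these genes are the partners of CDK4 and CDK6. Ccnd3 also rose with palbociclib, at 0.39 ± 0.14 (adjusted p = 0.044, the authors' deposited table). When every gene with a p was tested, without the authors' filter on low counts, some calls did not pass. These were the palbociclib calls of Ccnd3, Csf2rb, Csf2rb2, Csf3r, Irs2, Jak3, Socs5 and Bid and the ruxolitinib call of Irs2.

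Of 4 other SOCS family genes Socs5 rose with palbociclib and the combination, at 0.50 ± 0.17 and 0.49 ± 0.17 (adjusted p = 0.045 and 0.026, the authors' deposited table). The 3 others passed in no arm. Of 13 other negative regulators 0 rose in any arm. The phosphatase gene Ptpn1, whose product dephosphorylates JAK2, fell with palbociclib and the combination, at -0.55 ± 0.11 and -0.66 ± 0.12 (adjusted p = 0.00021 and 1.2e-06, the authors' deposited table), and was at -0.18 ± 0.11 with ruxolitinib. Ptpn11 and Cbl fell with the combination, at -0.43 ± 0.11 and -0.60 ± 0.20 in the authors' deposited table. Of 11 JAK and STAT genes 1 rose with palbociclib (Jak3, 0.47 ± 0.15, the authors' deposited table) and 10 passed neither way, while 0 of 11 passed with ruxolitinib or the combination. The drug target Jak2 was at -0.30 ± 0.19 with ruxolitinib (adjusted p = 0.56, the authors' deposited table) and Jak1 at -0.01 ± 0.16 (adjusted p = 0.99). The palbociclib target gene Cdk6 was at -0.51 ± 0.20 with palbociclib and fell with the combination, at -0.73 ± 0.20 (adjusted p = 0.079 and 0.0025, the authors' deposited table), and Cdk4 was at 0.14 ± 0.16 and -0.10 ± 0.16.

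Mycn, a paralogue of Myc, had 4469 normalised reads with palbociclib, 2169 with ruxolitinib and 4570 with the combination, against 1288 in vehicle. It rose with palbociclib and the combination, at 1.79 ± 0.52 and 1.83 ± 0.52 (adjusted p = 0.012 and 0.0044, the authors' deposited table). Mxd4, whose product opposes MYC at shared sites, rose with the combination (0.99 ± 0.28 in the authors' deposited table, adjusted p = 0.004). Mxd4 was also higher with the combination than with ruxolitinib by 1.65 ± 0.39 on the log2 scale (adjusted p = 0.005). With that error, which ignores the shared vehicle covariance and is too wide, it was the only difference between arms that passed among the 92 genes tested there. Ccnd1 was higher with palbociclib than with ruxolitinib by 1.26 ± 0.36 in the same form (adjusted p = 0.19). Differences with the vehicle variance removed were not read for these 92 genes. Of 18 MYC-induced genes, mostly of nucleolar ribosome synthesis, 0 passed with palbociclib, 0 with ruxolitinib and 8 fell with the combination. Their median with the combination was -0.38, and 10.2% of all genes fell there. That share is over 19228 genes, of which 12085 had a base mean of at least 50. The 18 genes had base means of 1666 (Rrp9) and above, so the share is not one of genes of like level. Without the filter on low counts 7 of the 8 passed. Cad, which encodes an enzyme of pyrimidine synthesis, had 4307 normalised reads with the combination, against 9151 in vehicle, and stood at -1.09 ± 0.25 (adjusted p = 0.00037, the authors' deposited table). Nolc1 and Ddx21 stood at -0.92 ± 0.22 and -0.76 ± 0.19 in the authors' deposited table. Of 14 BCL2 family relatives 3 fell with the combination, the pro-apoptotic genes Bid, Bak1 and Pmaip1 (-0.57 ± 0.12, -0.45 ± 0.11 and -1.66 ± 0.47, the authors' deposited table), where 10.2% of all genes fell. The 11 others, pro-apoptotic genes among them, passed neither way, and the median of the 14 was 0.17. With palbociclib Bid was the 1 call of 12 tested, at -0.36 ± 0.11 by the authors' deposited table, and with ruxolitinib 0 of 12 passed. Among 5 ID relatives and SMAD feedback genes 0 passed in any arm, with 3 tested under each single drug.

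**Figure D5:**
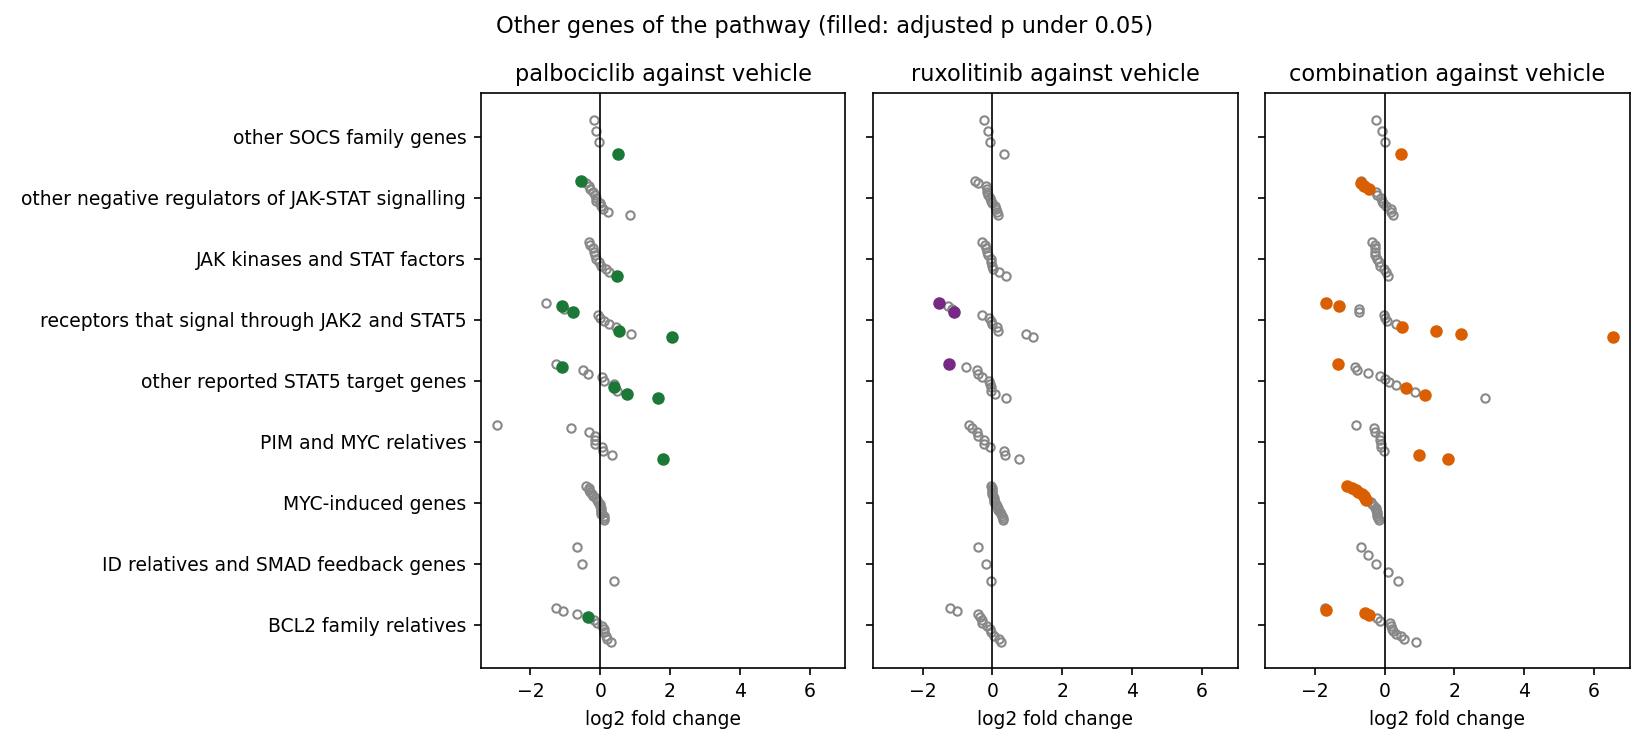
Log2 fold changes over vehicle (horizontal axis) of the tested genes of 9 pathway lists, 1 point a gene, for palbociclib, ruxolitinib and the combination; filled points passed the adjusted p and open points did not. Ruxolitinib has 3 filled points, Csf2rb, Csf2rb2 and Irs2, all below 0, and the MYC-induced genes have 8 filled points below 0 with the combination.

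Of the marker lists of other cell types, some held genes that passed in every arm, others only in some arms or in none. In bulk libraries fewer cells of a type and less RNA per cell cannot be told apart. Beside the marker counts that follow, 4.98%, 0.932% and 12.9% of all genes rose with palbociclib, ruxolitinib and the combination. The shares of all genes that fell were 3.64%, 2.03% and 10.2% in that order. Of 6 monocyte and macrophage markers 6 fell in each arm, and their summed level was 3441 normalised reads with palbociclib, 3291 with ruxolitinib and 2303 with the combination, against 11708 in vehicle. Granulocyte markers summed to 32507 normalised reads with palbociclib, 34193 with ruxolitinib and 15897 with the combination, against 108217 in vehicle. Mpo made up most of these sums, with 25825, 32065 and 14072 normalised reads in those arms, against 98091 in vehicle. Of these 7 genes Mpo and Elane fell in all 3 arms, while 4 others rose with palbociclib, 0 with ruxolitinib and 3 with the combination. The 6 B and plasma cell markers summed to 17499.7 normalised reads with palbociclib, 2772 with ruxolitinib and 265791 with the combination, against 7395 in vehicle. Jchain made up 252586 of the sum with the combination, against 1264 in vehicle. Its log2 fold change there was 7.64 ± 0.98 in the authors' deposited table. Which libraries carry these marker levels cannot be read from group values. Of the B and plasma cell markers 1, 0 and 3 rose in the 3 arms.

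The 7 erythroid markers summed to 6458 normalised reads with palbociclib, 3702 with ruxolitinib and 12993 with the combination, against 12118 in vehicle. Of them 0 were called with palbociclib, 2 fell with ruxolitinib (Car1 and Klf1) and 3 rose with the combination (Alas2, Hba-a1 and Hbb-bs). The near-equal sums of the combination and vehicle hold opposite moves. Car1 had 4828 normalised reads with the combination against 9496 in vehicle, without being called. Hbb-bs had 3494 against 296, and Hba-a1 2974 against 233. The 5 megakaryocyte markers summed to 9997 normalised reads with palbociclib, 7634 with ruxolitinib and 11507 with the combination, against 6401 in vehicle. Itga2b made up most of these sums, with 8517, 6500 and 9409 normalised reads in those arms, against 5505 in vehicle. Of the 5 markers 3 rose with the combination, and 0 passed with palbociclib or with ruxolitinib. Of the 5 T cell markers Lck alone was above a base mean of 2.01, at 415 normalised reads with palbociclib, 432 with ruxolitinib and 341 with the combination, against 373 in vehicle. Of 9 LSK gate and stem cell markers 3 rose with palbociclib (Procr, Mecom and Ly6a), 1 with ruxolitinib (Procr) and 5 with the combination (Procr, Ly6a, Mecom, Hlf and Kit), and 0 fell. Their summed level was 57798 normalised reads with palbociclib, 56141 with ruxolitinib and 70371 with the combination, against 51378 in vehicle. The gate gene Ly6a, which encodes Sca-1, was present in every group, at 2102 normalised reads with palbociclib, 1165 with ruxolitinib and 3557 with the combination, against 1004 in vehicle. Kit had 15506, 14933 and 19878 normalised reads in those arms, against 14277 in vehicle. The part of other cells in the members' values was not tested. Reads in genes, taken as the size factor times the summed base mean, ranged from 16950934 to 41622227 a library.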

How the data were processed

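Polyadenylated RNA of LSK cells was sequenced in 12 libraries. Per the submitters' processing notes, the tools were HISAT2 2.0.1 and fastp 0.20.0, with featureCounts 2.0.0, SAMtools 1.10 and the authors' DESeq2, on GRCm38. Settings are not given in the sources used here. Each deposited table compares 1 arm with vehicle. Its base mean is a signal, the authors' mean of counts over size factors. The log2 fold change and its error, the Wald score and the p-value with its adjusted p are the authors' deposited DESeq2 values. The threshold was an adjusted p of 0.05, and "rose" and "fell" mean that it was passed.

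Values per library were not used. Size factors were read from genes with 1 read in 1 library (15 to 74 genes for each library of these groups), which showed 24 libraries in the fit, 12 of them outside these groups. The vehicle level and dispersion of each gene were solved from its 3 errors, with fitted means floored at 0.5 reads; 99.7% of 19228 genes were solved within 1e-05, which measures how closely the solved values return the deposited errors. Intervals are 95% and rest on the modelled spread. Levels per kilobase use the merged length of all annotated exons of a gene in GENCODE release 21 on GRCm38. Python 3.11.15 with numpy 2.4.6, pandas 2.3.3, scipy 1.17.1 and matplotlib 3.10.9 was used.

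The members, the lists and the tests were chosen with earlier results of these data known. The genes named were all 10 members, up to 3 genes of each pathway list per comparison that passed with the smallest p, the drug target kinases, and marker genes as values. Ccnd3, Smad7, Prlr and Bop1 are named outside that rule, after their values were seen. The lists were 9 of the pathway and 7 of cell type markers. The values of 1 receptor gene are not reported here, and the list counts include it.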

Additional observations from a re-analysis of the deposited data

How the results depend on the processing

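For the members, 0 of 10 passed in each comparison with vehicle under each of 4 alternatives: no filter on low counts, genes with a base mean of at least 50 only, and fold changes recentred on the median of all genes tested or of genes with a base mean of at least 50 (medians within 0.06 of 0 on the log2 scale). The lowest adjusted p in these was 0.056, for Socs2 with the combination among genes with a base mean of at least 50. Between arms and for the departure from the sum, 0 of 10 passed with a correlation of 0.5, with the vehicle variance recovered per gene and with a base mean of at least 50 (lowest adjusted p 0.17, for Socs1). Recentring is the one alternative that changes a member's fold change; the others change its error or the adjustment, so they say nothing of its direction. The pathway lists were less stable. With no filter on low counts, the palbociclib counts became 0 for BCL2 relatives (Bid lost), 0 for JAK and STAT genes (Jak3 lost), 0 for other SOCS genes (Socs5 lost), 2 for other STAT5 targets (Ccnd3 and Irs2 lost) and 1 for receptors (Csf2rb, Csf2rb2 and Csf3r lost), and with ruxolitinib the STAT5 targets became 0 (Irs2 lost). With a base mean of at least 50, 1 ID or SMAD gene, Smad7, passed with the combination, and Prlr among the receptors, whose base mean is lower, was not tested (5 calls in place of 6). Without the filter Bop1 among the MYC-induced genes did not pass with the combination (7 calls in place of 8). No paired analysis was possible because the tables hold no values per library, and for the same reason no library could be left out. The modelled spread of Socs2, Socs3 and Pim2 (52.6% to 56.5%) limits what these libraries can show for them.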
